A study of Mus musculus with 8 samples.

Results

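The endothelium of brain capillaries forms the blood-brain barrier, and 10 genes that mark it were followed in the hippocampus of FTY720-treated and control mice. They were chosen by name, and every probe set annotated to exactly 1 of them was used, which gave 15 of the 22626 probe sets tested. All 8 mice were 12-week-old SCID males, which have no mature lymphocytes of the B or T lineage, and all went through contextual fear conditioning. Of these, 4 received FTY720 by mouth at 1 mg/kg in saline on 3 days (mice 1, 4, 5 and 6) and 4 received saline (mice 13 to 16). The whole hippocampus of each mouse was taken 1 hour after the consolidation test, 17 hours after the last dose, and gave 1 Affymetrix array. Values are log2 probe set values, and a difference is FTY720 minus vehicle on that scale. The comparison asks which hippocampal transcripts differed with the drug, and the mice are separate animals (n = 4 per group).

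Barrier endothelial cells are sealed to each other by tight junctions, in which claudins form the strands and zonula occludens proteins anchor them inside the cell. They carry glucose in through a dedicated transporter and pump many drugs out. VEGF and angiopoietin receptors on the same cells control vessel growth and permeability, and sphingosine-1-phosphate receptor 1, a target of phosphorylated FTY720, helps to keep endothelial junctions closed. In whole tissue, fewer endothelial cells and less RNA per endothelial cell cannot be told apart.

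None of the 15 probe sets passed an adjusted p of 0.05 in limma, where the lowest adjusted p among them was 0.699, and none of the 22626 probe sets did (0.0%, with 1529 of them at an unadjusted p under 0.05). The tight junction gene Cldn5 and the protease inhibitor gene Ctla2a had lower means in FTY720 mice, by 0.21 and 0.26. The drug pump gene Abcb1a had a higher mean by 0.15 on 1 of its 2 probe sets. These 3 were the member probe sets at an unadjusted p under 0.05, which 6.76% of all probe sets reached (4.03% higher and 2.73% lower). Differences of the 15 ran from -0.26 to 0.15 with a median of -0.03, beside a median of 0.009 over all probe sets. Of the 15, 6 had positive and 9 negative differences. Of the 15, 11 had a mean above the median level of all probe sets, as did 6 of 7 neuron and 9 of 10 astrocyte markers. The groups overlapped in all 15, whereas 4.38% of all probe sets had groups that did not overlap (2.65% higher and 1.74% lower in FTY720 mice).

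The promoters of the 3 genes with those probe sets are shown because they are the ones whose probe sets reached an unadjusted p under 0.05. Each is the 250 bases before the gene's start, from RefSeq on GRCm38.p6, which held an entry for 9 of the 10 genes. Capitals mark the ETS core letters GGAA on either strand, read as TTCC on the strand opposite. ETS factors are central regulators of endothelial genes.
Cldn5, chr16:18776597-18776846, plus strand: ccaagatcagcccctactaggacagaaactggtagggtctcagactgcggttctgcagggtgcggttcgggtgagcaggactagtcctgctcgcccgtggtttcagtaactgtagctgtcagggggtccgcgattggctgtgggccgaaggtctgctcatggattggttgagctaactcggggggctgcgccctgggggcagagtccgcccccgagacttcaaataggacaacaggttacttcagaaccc
Ctla2a, chr13:60936626-60936875, minus strand, the upstream of its 2 listed starts: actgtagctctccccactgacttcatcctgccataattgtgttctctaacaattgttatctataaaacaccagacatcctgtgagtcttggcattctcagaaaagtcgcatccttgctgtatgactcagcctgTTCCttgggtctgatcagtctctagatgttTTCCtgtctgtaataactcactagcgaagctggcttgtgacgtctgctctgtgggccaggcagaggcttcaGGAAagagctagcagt
Abcb1a, chr5:8566841-8567090, plus strand: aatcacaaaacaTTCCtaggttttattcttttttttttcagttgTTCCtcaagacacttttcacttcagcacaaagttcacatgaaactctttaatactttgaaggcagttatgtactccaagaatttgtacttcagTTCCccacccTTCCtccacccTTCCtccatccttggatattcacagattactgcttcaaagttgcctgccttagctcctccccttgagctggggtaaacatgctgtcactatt
The Cldn5 window held 0 matches, the printed Ctla2a window 3 and that of Abcb1a 5. The window of the other Ctla2a start, which overlaps the printed one, also held 5, so the counts do not order Ctla2a and Abcb1a. Of 32851 such windows in the table, 93.4% held at least 1 match, the median was 3, and 18.0% held 5 or more. A GC box, GGGCGG on either strand, was present 1 time for Cldn5 and 0 times for the other 2, against 32.7% of all windows with at least 1. These letters are a description of the windows and were not tested as binding sites.

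**Figure D1:**
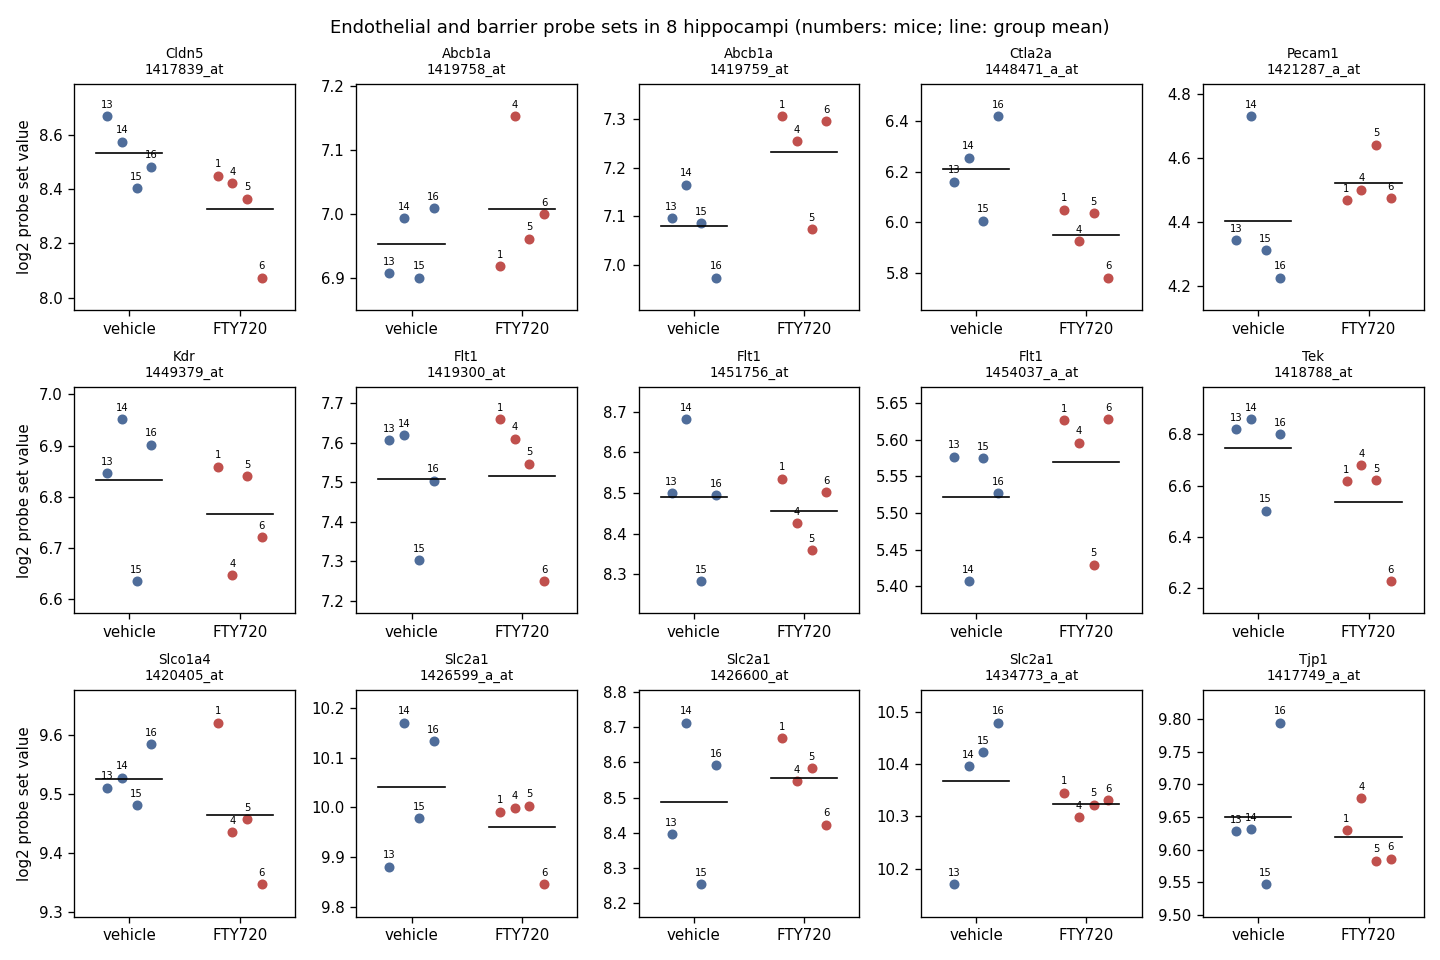
Log2 value of each of the 15 probe sets in every mouse, vehicle in blue and FTY720 in red, with a line at the group mean and a separate y scale per panel. FTY720 6 is the lowest of the 8 mice in 6 panels and vehicle 15 in 5, and the groups overlap in every panel.

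Cldn5 (1417839_at) encodes claudin-5, the main claudin of the blood-brain barrier. Its values were 8.45, 8.42, 8.37 and 8.07 in FTY720 1, 4, 5 and 6, and 8.67, 8.58, 8.40 and 8.48 in vehicle 13, 14, 15 and 16. The highest 2 FTY720 values lay above vehicle 15 and below the other 3 vehicle mice. The means were 8.33 ± 0.17 (SD, n = 4) and 8.53 ± 0.11, a difference of -0.21 (SE 0.09, limma adjusted p = 0.732), or 1.15-fold lower, with a 95% interval from -0.41 to -0.0011. FTY720 6 stood apart as the lowest mouse, and without it the difference was -0.12 (limma adjusted p = 0.842).

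Tjp1 (1417749_a_at) encodes ZO-1, the scaffold beneath tight junctions, which astrocytes and epithelia also use. Its values were 9.63, 9.68, 9.58 and 9.59 in FTY720 mice and 9.63, 9.63, 9.55 and 9.79 in vehicle mice, in the order of mice given for Cldn5. The groups overlapped almost fully apart from vehicle 16, the highest. The difference was -0.03 (SE 0.06, limma adjusted p = 0.943), with a 95% interval from -0.17 to 0.11. It was 0.02 without vehicle 16.

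Pecam1 (1421287_a_at), the adhesion molecule CD31 of endothelial cell borders, was dim, with a mean of 4.46 where the median of all probe sets was 6.70, so a change in it may be understated. It read 4.47, 4.50, 4.64 and 4.47 in FTY720 mice and 4.34, 4.73, 4.31 and 4.23 in vehicle mice. Vehicle 14 was the highest of all 8, and the other 3 vehicle mice lay below every FTY720 mouse. The difference was 0.12 (SE 0.10, limma adjusted p = 0.853), and 0.23 without vehicle 14 (limma adjusted p = 0.582).

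The efflux and uptake transporters came next. Abcb1a encodes P-glycoprotein of the mouse barrier, which returns lipophilic drugs to the blood. On 1419759_at it read 7.31, 7.25, 7.07 and 7.30 in FTY720 mice and 7.10, 7.17, 7.09 and 6.97 in vehicle mice. In 3 of 4 FTY720 mice the value exceeded every vehicle value, and FTY720 5 lay within the vehicle range. The means of 7.23 ± 0.11 (SD, n = 4) and 7.08 ± 0.08 differed by 0.15 (SE 0.07, limma adjusted p = 0.732). On 1419758_at the difference was 0.06 (SE 0.06, limma adjusted p = 0.883), with 7.15 in FTY720 4 as the highest value and the other 7 mice between 6.90 and 7.01. Without FTY720 4 that difference was 0.0075, so most of its size rested on 1 mouse. The mean over both probe sets gave 0.10 (limma adjusted p = 0.762). The gene has a close paralog, Abcb1b, and how far these probes hybridise to it was not tested.

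Slco1a4 (1420405_at) encodes an organic anion transporter, Oatp1a4, of brain capillaries. Its values were 9.62, 9.44, 9.46 and 9.35 in FTY720 mice and 9.51, 9.53, 9.48 and 9.58 in vehicle mice. In 3 of the 4 FTY720 mice the value lay below the lowest vehicle mouse, while FTY720 1 was the highest of all 8. The difference was -0.06 (SE 0.06, limma adjusted p = 0.877), and the 95% interval ran from -0.20 to 0.08.

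Slc2a1 encodes GLUT1, the glucose transporter of the barrier, and had 3 probe sets. On 1434773_a_at the FTY720 values were 10.34, 10.30, 10.32 and 10.33 and the vehicle values 10.17, 10.40, 10.42 and 10.48. Vehicle 13 lay below every FTY720 mouse and the other 3 vehicle mice lay above. Without vehicle 13 the difference on this probe set was -0.11 (limma adjusted p = 0.651). On 1426599_a_at FTY720 6 was the lowest mouse at 9.85, and the other 3 FTY720 mice lay within the vehicle range of 9.88 to 10.17. The differences were -0.04 (SE 0.07) and -0.08 (SE 0.07), and the third probe set, 1426600_at, gave 0.07 (SE 0.10), with limma adjusted p values of 0.922, 0.861 and 0.913. The 3 probe sets did not share a sign, and the widest 95% interval of the 3 ran from -0.15 to 0.29.

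**Figure D2:**
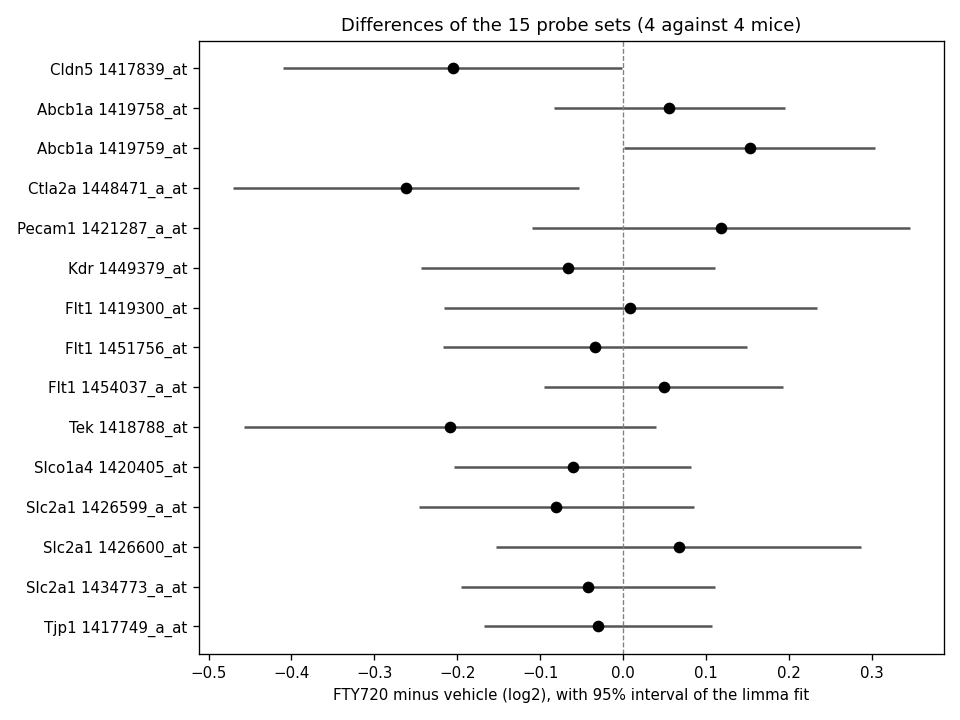
Difference of each probe set, FTY720 minus vehicle on the log2 scale, as a point with the 95% interval of the limma fit as a line. Only the intervals of Cldn5, Ctla2a and 1 probe set of Abcb1a leave 0 out, and none of these differences passed adjustment over all probe sets.

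The receptors of vessel growth factors showed differences near 0 for VEGF receptors and a negative mean for the angiopoietin receptor. Kdr (1449379_at), VEGF receptor 2 and the main signalling receptor for VEGF-A, read 6.86, 6.65, 6.84 and 6.72 in FTY720 mice and 6.85, 6.95, 6.63 and 6.90 in vehicle mice. Both groups spanned nearly the same range, with vehicle 15 and FTY720 4 lowest. Its difference was -0.07 (SE 0.08, limma adjusted p = 0.894).

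Flt1 encodes VEGF receptor 1, which binds VEGF-A tightly and can act as a decoy, and had 3 probe sets. The brightest, 1451756_at, read 8.54, 8.43, 8.36 and 8.50 against 8.50, 8.68, 8.28 and 8.49, a difference of -0.03 (SE 0.08). On 1419300_at the values were 7.66, 7.61, 7.55 and 7.25 against 7.61, 7.62, 7.30 and 7.50, a difference of 0.0087 (SE 0.10). The 2 lowest mice on that probe set were FTY720 6 and vehicle 15, 1 in each group. The dimmest, 1454037_a_at, gave 0.05 (SE 0.06), and the limma adjusted p values of the 3 were 0.957, 0.992 and 0.905 in the order given.

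Tek (1418788_at) encodes Tie2, the receptor for angiopoietins, which keeps vessels quiescent. Its values were 6.62, 6.68, 6.62 and 6.23 in FTY720 mice and 6.82, 6.86, 6.50 and 6.80 in vehicle mice. Within each group 3 mice lay close together, and FTY720 6 and vehicle 15 lay far below. The difference was -0.21 (SE 0.11, limma adjusted p = 0.760). It was -0.11 without FTY720 6 (limma adjusted p = 0.880) and -0.29 without vehicle 15 (limma adjusted p = 0.706).

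Ctla2a (1448471_a_at) encodes an inhibitor of cysteine proteases that resembles a cathepsin propeptide and is enriched in brain endothelium. It read 6.05, 5.93, 6.04 and 5.78 in FTY720 mice and 6.16, 6.26, 6.01 and 6.42 in vehicle mice. Of the FTY720 mice, 2 lay below every vehicle mouse and the other 2 exceeded only vehicle 15. The means of 5.95 ± 0.12 (SD, n = 4) and 6.21 ± 0.17 differed by -0.26 (SE 0.09, limma adjusted p = 0.699), or 1.20-fold. A probe set annotated to both Ctla2a and Ctla2b, and so outside the 15, gave -0.12 (SE 0.09, limma adjusted p = 0.828). Signal of the 2 genes cannot be separated on such a probe set.

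Mice of 1 group differed among themselves across many of the 15 probe sets. FTY720 6 was the lowest of the 8 mice for 6 of the 15 probe sets and vehicle 15 for 5, while vehicle 14 was the highest for 6. Vehicle 15 lay below the mean of the 8 mice for 13 of the 15, FTY720 5 and FTY720 6 for 10 each, vehicle 16 for 4 and vehicle 14 for 2. The median of the 15 probe sets, each relative to its mean over the 8 mice, was 0.02, 0.02, -0.02 and -0.08 in FTY720 1, 4, 5 and 6. It was 0.01, 0.15, -0.08 and 0.07 in vehicle 13 to 16. The lowest mouse of each group thus had nearly the same median, and the FTY720 medians all lay within the vehicle range.

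**Figure D3:**
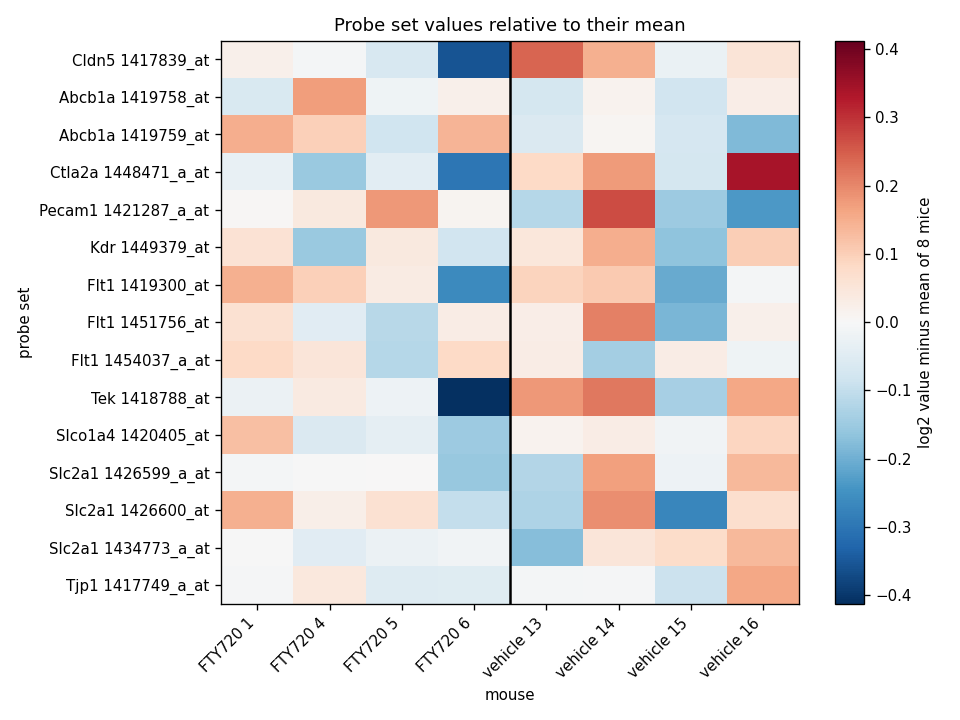
Each probe set's log2 value minus its mean over the 8 mice, from blue (lower) to red (higher), with FTY720 mice left and vehicle mice right of the line. The columns of FTY720 5, FTY720 6 and vehicle 15 are mostly blue and those of vehicle 14 and vehicle 16 mostly red.

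Vehicle 15 was also the array with the lowest median correlation with the others, 0.994, and it had the highest mean level of choroid plexus, thalamus and striatum markers, 1.33, 1.07 and 1.20 relative to the mean of the 8 mice. Array medians lay between 6.68 and 6.72. The Gapdh control 5' minus 3' difference, a sign of RNA integrity, ran from -1.08 to -0.80 in FTY720 mice and from -1.46 to -1.07 in vehicle mice, with vehicle 16 lowest. With that difference as a covariate, Cldn5 stood at -0.18, Ctla2a at -0.06 and Abcb1a at 0.08, and none of the 15 had an unadjusted p under 0.05 in limma. The covariate was itself uneven between the groups, and its part in the values was not tested.

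Without vehicle 15, the values of Cldn5, Ctla2a and Tek in all 4 FTY720 mice lay below those of the other 3 vehicle mice. This holds for 3 of the 15 probe sets, beside 7.84% of all probe sets in either direction, 3.58% lower and 4.27% higher in FTY720 mice. Without vehicle 15 their differences were -0.25, -0.33 and -0.29, with limma adjusted p values of 0.709, 0.650 and 0.706. The same 3 probe sets had separate groups without vehicle 15 and 16, beside 14.2% of all (6.78% lower, 7.46% higher), and without FTY720 6 and vehicle 15, beside 12.1% (5.67% lower, 6.41% higher). Leaving out 1 other mouse separated the groups of other probe sets, in both directions. Without FTY720 5, the remaining FTY720 values of Abcb1a (1419759_at) and Flt1 (1454037_a_at) lay above all vehicle values. Pecam1 was likewise higher without vehicle 14. Slco1a4 was lower without FTY720 1, and Slc2a1 (1434773_a_at) was lower without vehicle 13. The shares of all probe sets are not given for these. Without vehicle 16, none of the 15 had an unadjusted p under 0.05, with Ctla2a at -0.19 and Cldn5 at -0.22. The same count was 0 without FTY720 6 and 1 without vehicle 13, so single mice of both groups decide it.

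Other genes tied to the endothelium or the barrier were described with 1 probe set per gene, that of the highest mean. They came from lists that were fixed with earlier results known. Not all of them are particular to endothelial cells, and Cdh5, Esam, Tie1 and Ptprb are each in more than 1 list. Over all 12393 genes, 6.26% had an unadjusted p under 0.05, 3.57% higher and 2.7% lower, 4.49% had groups that did not overlap, and no listed gene passed adjustment. Of 28 endothelial identity genes, 9 had positive and 19 negative differences (median -0.06, beside 0.0072 over all genes). An unadjusted p under 0.05 was reached by 2 with a higher FTY720 mean, Rasip1, a regulator of vessel tube formation (0.18, SE 0.06), and the transcription factor gene Tal1 (0.19, SE 0.07). It was reached by 1 with a lower mean, the ETS factor gene Fli1 (-0.23, SE 0.08), whose other probe set gave -0.18. The junction cadherin gene Cdh5 stood at -0.06 (SE 0.09) and the angiopoietin co-receptor gene Tie1 at -0.07 (SE 0.10). Rasip1, Tal1 and Tie1 were dim, with means of 4.26, 4.89 and 3.67 where the median of all probe sets was 6.70. Fli1 and Cdh5 had means of 5.61 and 6.28.

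By mouse, the mean of the identity genes followed the 10 genes in its lowest members. It was 0.05, -0.02, -0.0041 and -0.08 in FTY720 mice and 0.01, 0.08, -0.12 and 0.09 in vehicle mice. Vehicle 15 was again the lowest and FTY720 6 the next. Pericyte markers ranged from -0.01 to 0.04 under FTY720 and from -0.11 to 0.05 under vehicle. Red blood cell markers ranged from -0.07 to 0.06 and from -0.07 to 0.07 in the same order. These markers were dim, with a median level of 4.60, and 0 of the 6 lay above the median of all probe sets, 6.70.

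**Figure D4:**
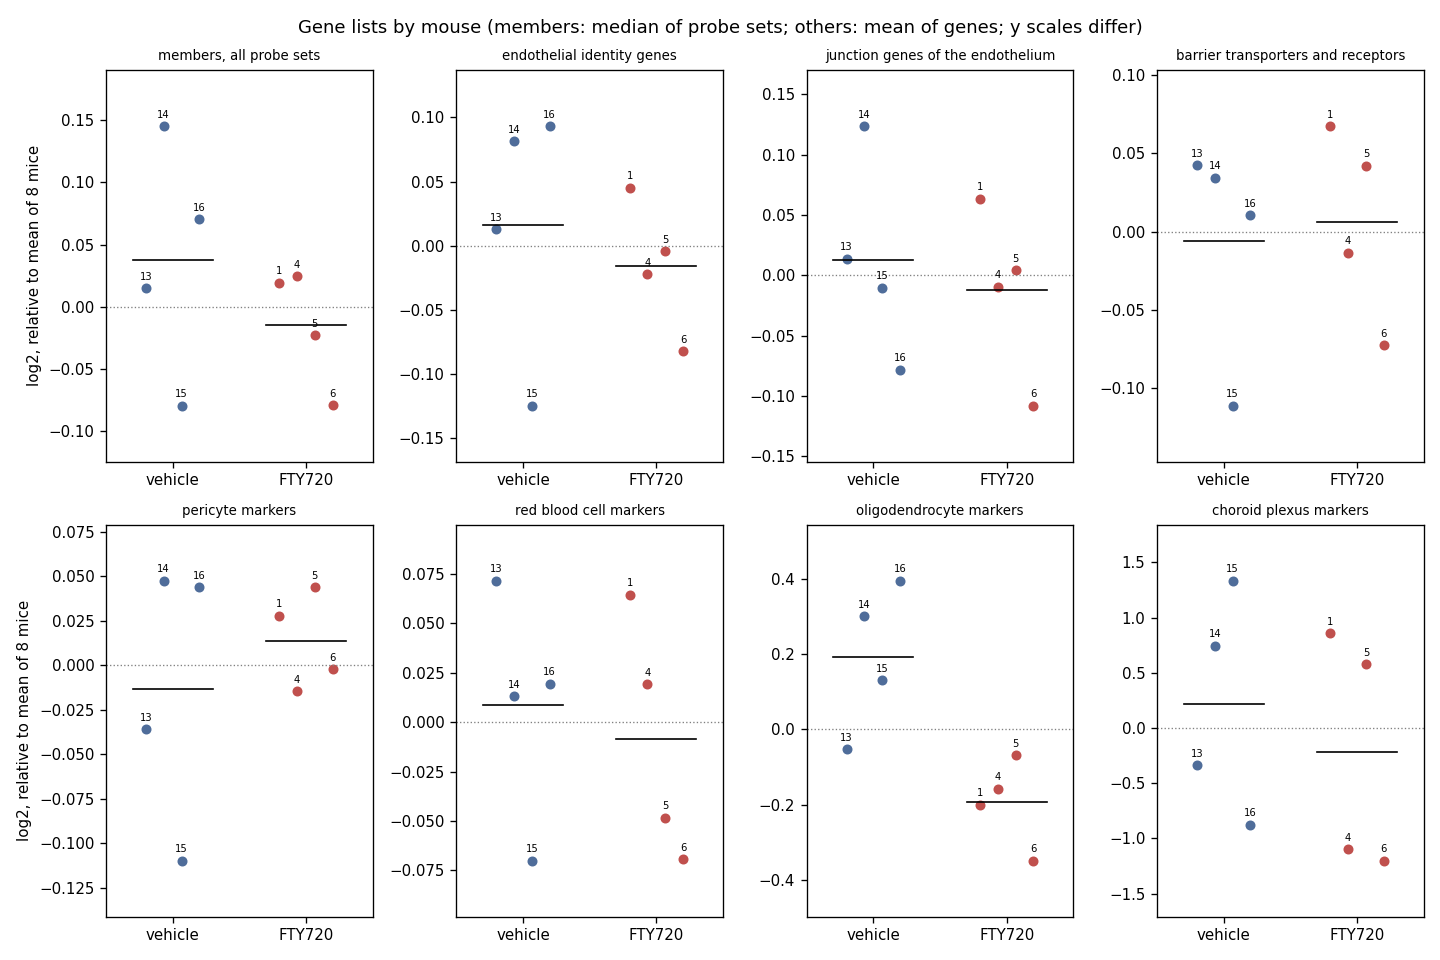
Level of 8 gene lists in every mouse on the log2 scale, relative to the mean of the 8 mice, as the median of the 15 probe sets or the mean of the genes of a list, with a line at the group mean. Vehicle 15 is the lowest mouse in the panels of the 15 probe sets, endothelial identity genes, transporters, pericytes and red blood cells, and the highest in that of choroid plexus markers.

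Of 12 other junction genes, 4 had positive and 8 negative differences (median -0.05), with 1 at an unadjusted p under 0.05. This was Tjp3, a zonula occludens relative of Tjp1, at -0.24 (SE 0.08), from a dim probe set with a mean of 3.96. Cldn1 stood at 0.27 (SE 0.19), from 0.11 without vehicle 16 to 0.42 without FTY720 6, and Cldn3 at -0.07 (SE 0.06). Occludin, Ocln, a further protein of tight junction strands, stood at -0.15 (SE 0.15), and at 0.04 without FTY720 6 and vehicle 15.

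Of 19 other barrier transporters and receptors, 10 had positive and 9 negative differences (median 0.0040). Slc38a5, a transporter of glutamine and other amino acids in brain endothelium, read 5.84, 5.77, 5.75 and 5.50 in FTY720 mice and 6.17, 6.21, 5.86 and 5.98 in vehicle mice. Its groups did not overlap, as in 1.78% of all genes on the lower side, although FTY720 1 lay close below vehicle 15. The difference was -0.34 (SE 0.10, limma adjusted p = 0.635), and it lay between -0.40 and -0.27 whichever mouse was left out. Spock2, a matrix proteoglycan gene, stood at 0.17 (SE 0.06) with groups that did not overlap, and the lipoprotein receptor gene Lrp8 at 0.19 (SE 0.09).

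Next came the ligands and other genes around the VEGF and angiopoietin receptors. Of 18 genes of the VEGF and angiopoietin system, 10 had positive and 8 negative differences (median 0.04), 3 and 1 of them at an unadjusted p under 0.05. Vegfd, a ligand of the lymphatic VEGF receptor Flt4, read 6.34, 6.12, 6.72 and 6.73 in FTY720 mice and 5.79, 5.77, 5.39 and 6.07 in vehicle mice. All FTY720 mice lay above all vehicle mice, as in 2.72% of all genes on the higher side. The difference was 0.72 (SE 0.16, limma adjusted p = 0.593), and its 2 other probe sets gave 0.73 (SE 0.15) and 0.44 (SE 0.15), the last with groups that overlapped. Vehicle 15 was the lowest mouse on all 3, and without it the difference was 0.60.

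Angpt2 encodes angiopoietin-2, which can oppose the action of angiopoietin-1 on Tek. It read 5.50, 5.52, 5.56 and 5.46 in FTY720 mice and 5.67, 5.71, 5.76 and 5.87 in vehicle mice, with no overlap. The difference was -0.24 (SE 0.06, limma adjusted p = 0.593), and it lay between -0.27 and -0.20 whichever mouse was left out. Pgf encodes placental growth factor, a ligand of Flt1 and not of Kdr. It read 6.93, 6.94, 7.03 and 7.07 against 6.87, 6.87, 6.74 and 6.53, a difference of 0.24 (SE 0.08, limma adjusted p = 0.690) with no overlap. With the Gapdh covariate Pgf stood at 0.11. Vegfa, the main ligand of both VEGF receptors, stood at 0.10 (SE 0.07).

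**Figure D5:**
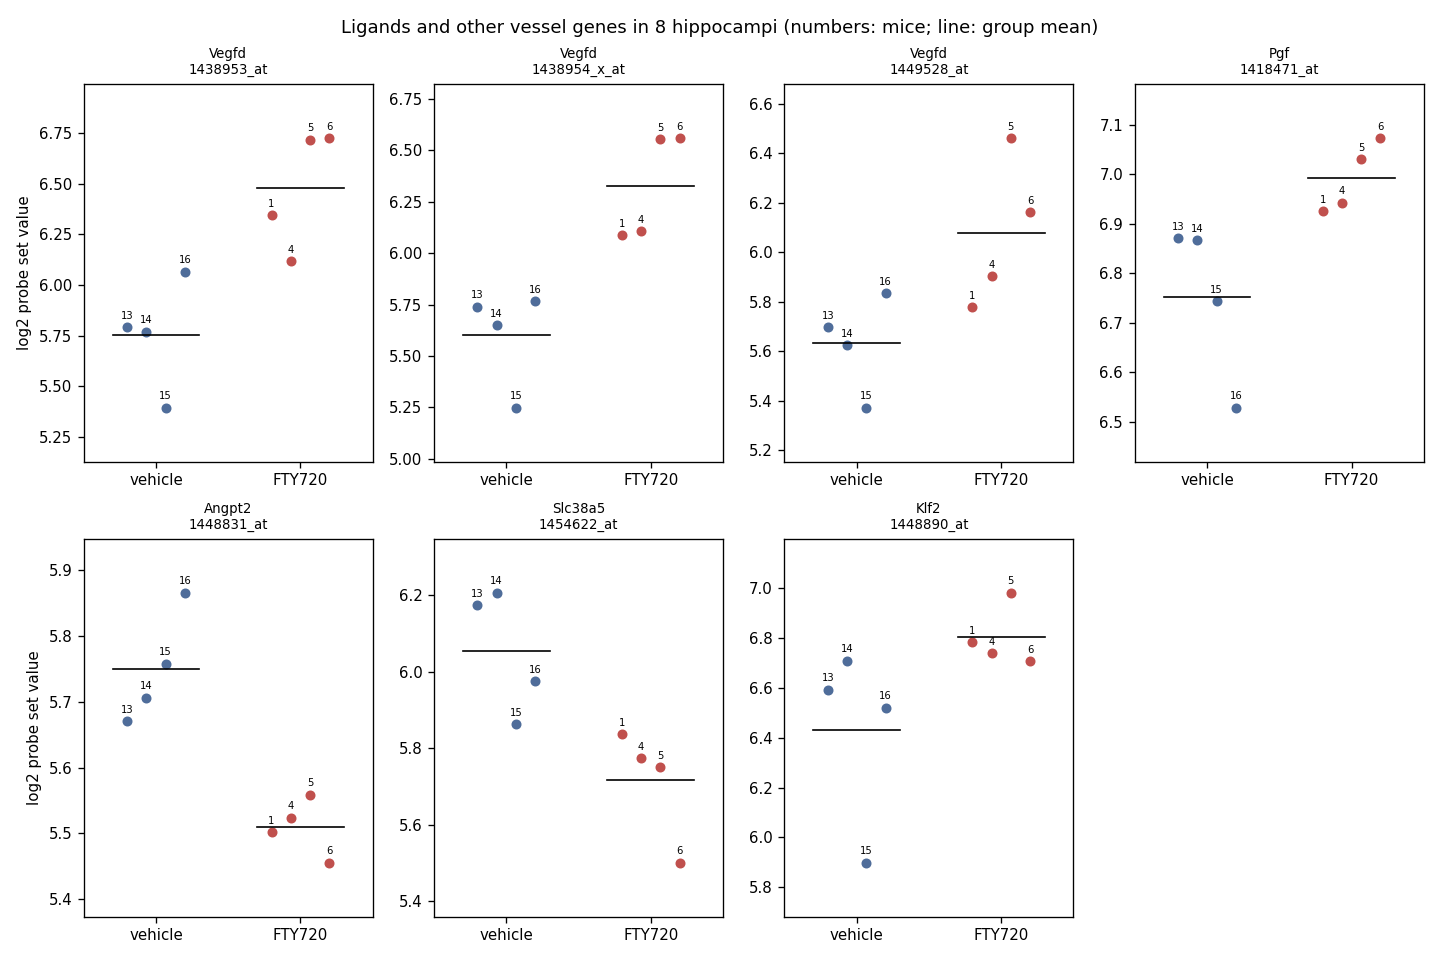
Log2 values of the 3 probe sets of Vegfd and of Pgf, Angpt2, Slc38a5 and Klf2 in every mouse, with a line at the group mean and a separate y scale per panel. The groups are apart for 2 probe sets of Vegfd and for Pgf, Angpt2 and Slc38a5, with no gene past an adjusted p of 0.05.

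Of 16 genes of Wnt signalling that induces the barrier, 5 had positive and 11 negative differences (median -0.04). The ligand genes Wnt7b and Wnt7a, made by neural cells, stood at 0.24 (SE 0.09) and 0.09 (SE 0.05), and Ndp, which encodes norrin, at -0.14 (SE 0.09). The other probe set of Wnt7b gave -0.01. Of 11 activation and flow genes, 7 were positive and 4 negative (median 0.03), with the flow-induced factor gene Klf2 at 0.37 (SE 0.15), or 0.20 without vehicle 15. Edn1 stood at -0.09 (SE 0.06) and Ackr1 at 0.09 (SE 0.07).

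Of 7 sphingosine-1-phosphate genes of vessels, 5 were positive and 2 negative (median 0.06), none of them at an unadjusted p under 0.05. S1pr1 read 8.58, 8.40, 8.31 and 8.32 in FTY720 mice and 8.35, 8.40, 8.16 and 8.35 in vehicle mice, so the groups overlapped. Spns2, the exporter of sphingosine-1-phosphate from endothelial cells, stood at 0.22 (SE 0.11), and at 0.11 without vehicle 15. Sphk1 stood at 0.13 (SE 0.10) and Sgpl1 at -0.09 (SE 0.07).

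Cells around the vessel wall were described in the same way. Of 9 pericyte markers, 7 were positive and 2 negative, with the potassium channel gene Kcnj8 at -0.17 (SE 0.07) and without overlap, Rgs5 at 0.12 (SE 0.08) and Cspg4 at 0.07 (SE 0.06). Of 7 smooth muscle markers, 4 were positive and 3 negative, with Mylk at 0.12, Myh11 at -0.14 and Des at -0.05. Of 10 fibroblast and meningeal markers, 4 were positive and 6 negative, with Col1a1 at 0.09 and Col3a1 at -0.17. Dcn at 0.90 (SE 0.18, limma adjusted p = 0.592) was alone at an unadjusted p under 0.05. Its difference was the highest of all probe sets tested and lay between 0.78 and 1.04 whichever mouse was left out. The groups of Dcn did not overlap, as in 2.72% of all genes on the higher side. Of 6 red blood cell markers, 3 were positive and 3 negative, with Alas2 at 0.15, Hbb-b2 at -0.15 and Hemgn at -0.15. The probe set of Hemgn was dim, with a mean of 2.91.

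Markers of neighbouring tissue and other cell types differed between mice beside the 10 genes. Choroid plexus markers had negative differences in 9 of 9 (Folr1 at -0.78, Ttr at -0.69 and Otx2 at -0.66), none at an unadjusted p under 0.05. Their mean varied by mouse in both groups, at 0.86, -1.10, 0.58 and -1.20 in FTY720 1, 4, 5 and 6 and at -0.34, 0.75, 1.33 and -0.88 in vehicle 13 to 16. Thalamus markers were negative in 8 of 9 (Tcf7l2 at -1.44, Ramp3 at -0.74 and Rora at -0.43), with 5 reaching an unadjusted p under 0.05 and 2 having no overlap. Striatum markers were negative in 7 of 7 (Penk at -1.14, Rarb at -0.70 and Rasd2 at -0.41), none at an unadjusted p under 0.05 and 1 without overlap. Without vehicle 15, Penk stood at -0.61, Rarb at -0.26, Rasd2 at -0.19, Tcf7l2 at -0.87, Folr1 at -0.33 and Otx2 at -0.16. Whichever mouse was left out, Ramp3 lay between -0.87 and -0.51, Rora between -0.51 and -0.32 and Ttr between -1.08 and -0.25. Oligodendrocyte markers were negative in 8 of 8 (Mog at -0.54, Ugt8a at -0.52 and Aspa at -0.44), all 8 at an unadjusted p under 0.05 and 5 without overlap, beside 2.7% and 1.78% of all genes on the lower side. Their mean by mouse was lowest in FTY720 6, -0.35, the mouse lowest in Cldn5, Ctla2a and Tek. It was 0.13 in vehicle 15, the lowest vehicle mouse in Cldn5, Ctla2a and Tek. FTY720 6 was also the lowest mouse in the means of choroid plexus markers, astrocyte markers and junction genes. Astrocyte markers, whose end-feet cover the vessels, were negative in 7 of 10, of which 2 reached an unadjusted p under 0.05 and had no overlap, with Aqp4 at -0.23, Kcnj10 at -0.17 and Gjb6 at 0.19. The other probe set of Aqp4 gave -0.06 (SE 0.15), with groups that overlapped. Microglia markers were negative in 5 of 9 (Aif1 at -0.17, C1qb at -0.10 and P2ry12 at -0.08) and neuron markers in 3 of 7 (Syt1 at 0.12, Camk2a at 0.15 and Snap25 at -0.07). The other probe sets of C1qb gave -0.21 (SE 0.08), with groups that did not overlap, and -0.0054 (SE 0.09), with groups that overlapped. The part of these cells in the values of the 10 genes was not tested.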

How the data were processed

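The authors deposited 1 table of log2 values, 1 column per mouse. The submitters' processing notes list RMA, MAS5 and the Affymetrix Expression Console and give no role for any, and the log2 scale was read from the values, whose array distributions are near-equal as after RMA. Such summaries compress dim signals. Genome build, batches and scan dates are not given in the sources used here. Of 22690 probe sets, 64 controls were left out, and 22626 were tested as deposited, with no filter (20380 had 1 gene symbol in the platform annotation, 691 several and 1555 none). limma 3.58.1 in R 4.3.3 (lmFit, eBayes, no covariate) compared 4 FTY720 with 4 vehicle arrays, with Benjamini-Hochberg adjustment over all probe sets. SE values and 95% intervals come from that fit, SD values from the mice, and their number limits the precision. The fit was tested on simulated data.

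All probe sets of the 10 genes are named, with 3 genes of smallest unadjusted p per list and S1pr1, Cdh5, Ocln, Vegfa and Tie1. Genes and lists were chosen with earlier results of these data known. Of listed genes, those without a probe set of their own were not analysed here. Alternatives covered scaling, dim and cross-hybridising probe sets, probe sets per gene, variance models, array weights, an RNA integrity covariate and mice left out, and 1 that leaves out FTY720 6 and vehicle 15 was added after the data were seen.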

Additional observations from a re-analysis of the deposited data

Results flagged for a closer look

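In 188 groups of 4 mice tested for an outlying value, 9 were flagged where chance alone flags about 1 in 20. Among the 15 probe sets, Tek had FTY720 6 at 6.23, with the other 3 FTY720 mice between 6.62 and 6.68, and vehicle 15 at 6.50, with the others between 6.80 and 6.86. On 1 Slc2a1 probe set, FTY720 6 stood at 9.85, with the other 3 at 9.99 or above. On the dimmest Flt1 probe set, FTY720 5 stood at 5.43 below 5.60 to 5.63. Among list genes, vehicle 14 was far from its group for Cspg4 (7.00), Hemgn (3.21) and Vegfa (7.39), vehicle 15 for Alas2 (5.61) and FTY720 1 for Hbb-b2 (6.08).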

How the results depend on the processing

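No paired analysis was possible because the replicate numbers differ between the groups. Under no alternative did any of the 15 probe sets pass an adjusted p of 0.05. The number of the 15 at an unadjusted p under 0.05, 3 as reported, ran from 0 to 3 when 1 mouse was left out and was 0 with the Gapdh covariate. The number whose groups did not overlap, 0 as reported, ran from 0 to 3 with 1 mouse left out, some higher and some lower in FTY720 mice. It was 3 without vehicle 15 and 16 and 3 without FTY720 6 and vehicle 15, the last an alternative chosen after seeing the data. The median over the 15 ran from -0.0652 to -0.0053 with 1 mouse left out and was 0.0362 with the Gapdh covariate.

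Some differences changed sign, none of them past an adjusted p of 0.05. Flt1 (1419300_at) stood at -0.0017 after quantile normalization, -0.019 with array weights and -0.0956 without vehicle 15 and 16, and ran from -0.0596 to 0.10 with 1 mouse left out. Flt1 (1451756_at) stood at 0.0077 with probe sets averaged and 0.0058 with the covariate, and ran from -0.10 to 0.0295. Slc2a1 (1434773_a_at) stood at 0.0135 with array weights, 0.0413 without vehicle 15 and 16 and 0.0367 with the covariate. Without vehicle 15 and 16, Pecam1 stood at -0.016 and Camk2a at -0.0315. Without FTY720 6 and vehicle 15, Otx2 stood at 0.275, Camk2a at -0.014 and Ocln at 0.0354. The covariate also turned Kdr (0.067), Slco1a4 (0.034), Slc2a1 on 1426599_a_at (0.0184), Tjp1 (0.0439), Myh11 (0.168), Des (0.0088), C1qb (0.0481) and Cdh5 (0.0281). With 1 mouse left out, the difference ran from -0.0115 to 0.14 for Slc2a1 (1426600_at), from -0.0652 to 0.0174 for Tjp1, from -0.118 to 0.0247 for Cdh5 and from -0.31 to 0.0138 for Myh11. The causes were not tested. Cldn5, Ctla2a, Tek and both Abcb1a probe sets kept their sign under each alternative run on them.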
